A study of Arabidopsis thaliana with 18 samples.

Results

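The subject is a set of 74 Arabidopsis genes, out of 5689 tested, with less transcript 3 h after a spray of methyl jasmonate (MeJA), which plants convert to the hormone jasmonate, in jaz10phyb, jaz10 and Col plants alike. They were selected on the measured response itself: a gene entered when its log2 signal was at least 0.8 lower after MeJA than after Control spray in each of those 3 genotypes. That rule was met by 79 genes, and 5 of them were left out by name (EXPA8, BZIP61, BZIP34, ATSPS4F and BGLU47). The changes in the 3 genotypes are therefore a description with no test. The response in phyb plants and the differences between genotypes were not used by the rule, and these were tested.

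RNA from whole plants was hybridised to 18 single-colour Affymetrix arrays, whose probe sets (groups of short probes for a transcript) each give a summarised signal. The groups were the jaz10phyb double mutant (jaz10 with the phyB-9 allele), the jaz10 mutant, the phyb mutant (phyB-9) and wild-type Col (Col-0), each sprayed with 250 µM MeJA or with a water mock (Control). All plants were 4 weeks old, grown at 22 °C with 8 h of light and 16 h of dark, and harvested 3 h after the spray. Each sample pooled at least 4 plants, with 3 arrays for either phyb group and 2 for any other group. The labels name no allele for jaz10. Nor do they state that replicate pools were raised apart, so the p-values reflect variation among the pools at hand, which may be technical. In whole plants, fewer cells of a type and less RNA per cell cannot be told apart.

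Jasmonate is the hormone of wounding and defence. Its active form joins the receptor COI1 to JAZ repressors, such as JAZ10, which are then degraded, and transcription factors of the MYC family are released. The same hormone is known to slow growth, and many genes of growth and of photosynthesis carry less transcript after it. Phytochrome B, the product of PHYB, is a receptor for red light that restrains elongation, and plants that lack it or sense shade are known to respond less to jasmonate. PHYB and JAZ10 have no probe set named for them alone here, so the loss of either transcript was not checked.

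Most members are known here only by locus. A symbol was found for 5 of the 74 and the other 69 are given by their locus identifiers, with no function attached. Each member rests on 1 probe set. A check of the tissue was possible for few markers: RCA, the rubisco activase of green tissue, had a signal between 2827 and 3508 on all 18 arrays, EXPA7, a root hair expansin, had a mean signal of 5.8, and the flower markers had no probe set named for them alone.

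The arrays labelled phyb Control 2 and phyb MeJA 3 each resembled the opposite treatment in these genes. For each array the median over the members was taken of the log2 signal minus the gene's mean over 18 arrays. It was -0.50, -0.24 and 0.60 on the phyb MeJA arrays 1, 2 and 3, against 0.68, -0.44 and 0.51 on the phyb Control arrays 1, 2 and 3. In the other genotypes it lay between -0.81 and -0.59 on MeJA arrays and between 0.46 and 0.62 on Control arrays, with no overlap. On phyb MeJA 3 all 74 members were above their own mean, and on phyb Control 2 only 3 of 74 were. The 200 genes that met the mirrored rule, at least 0.8 higher after MeJA in the same 3 genotypes, stood the other way, at -0.85 on phyb MeJA 3 and 0.70 on phyb Control 2. Results that rest on the phyb arrays are given with all 18 arrays and without these 2. The 2 arrays were singled out on the very response that is tested, so calls that leave them out are no independent evidence, and no array was given another label.

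**Figure D1:**
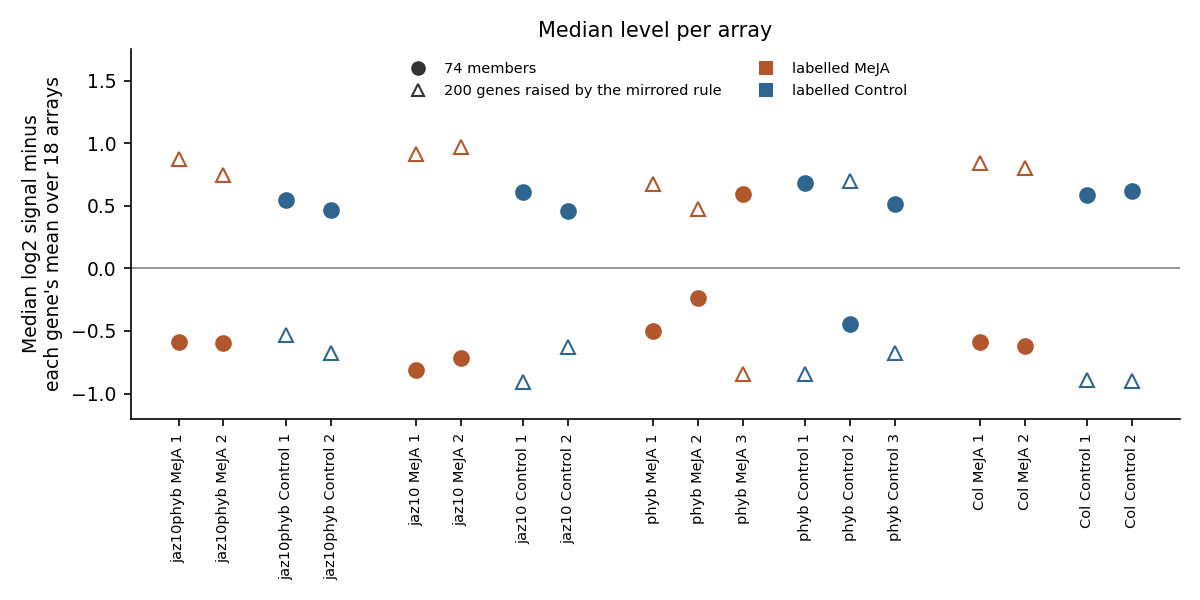
Median log2 signal minus each gene's mean over 18 arrays (y axis) on each array (x axis), for the 74 members (filled circles) and for the 200 genes raised by the mirrored rule (open triangles), coloured by the labelled treatment. The 2 sets change places on phyb MeJA 3, where the members are at 0.60, and on phyb Control 2, where they are at -0.44.

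The members are part of a longer list in each genotype. A log2 change of -0.8 or below was found for 159 genes in jaz10phyb, 217 in jaz10 and 224 in Col, and the 79 genes that passed in all are 49.7%, 36.4% and 35.3% of those lists. The median change of the members was -1.06 in jaz10phyb, with a range of -2.81 to -0.80. In jaz10 the median was -1.27 and the range -2.53 to -0.86. In Col the median was -1.19 and the range -2.98 to -0.80. Over all 5689 genes the medians were -0.08, -0.05 and -0.02 in the same order.

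Signals were compared as log2(signal + 1), so a fold on that scale understates the change of a dim gene. Of the 74 members, 34 were at least 2-fold lower after MeJA in all 3 genotypes, 7 were at least 4-fold lower in at least 1, and AT5G19190 alone was at least 4-fold lower in all 3. Every MeJA array lay below every Control array for all 74 members in each of jaz10phyb, jaz10 and Col. The same separation held for 38.3% of all genes in jaz10phyb, 37.9% in jaz10 and 34.9% in Col, and the rule fixed it for genes this far apart. The median gap between replicate arrays of a group was 0.14 to 0.20 for members and 0.12 to 0.15 for all genes on the log2 scale.

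**Figure D2:**
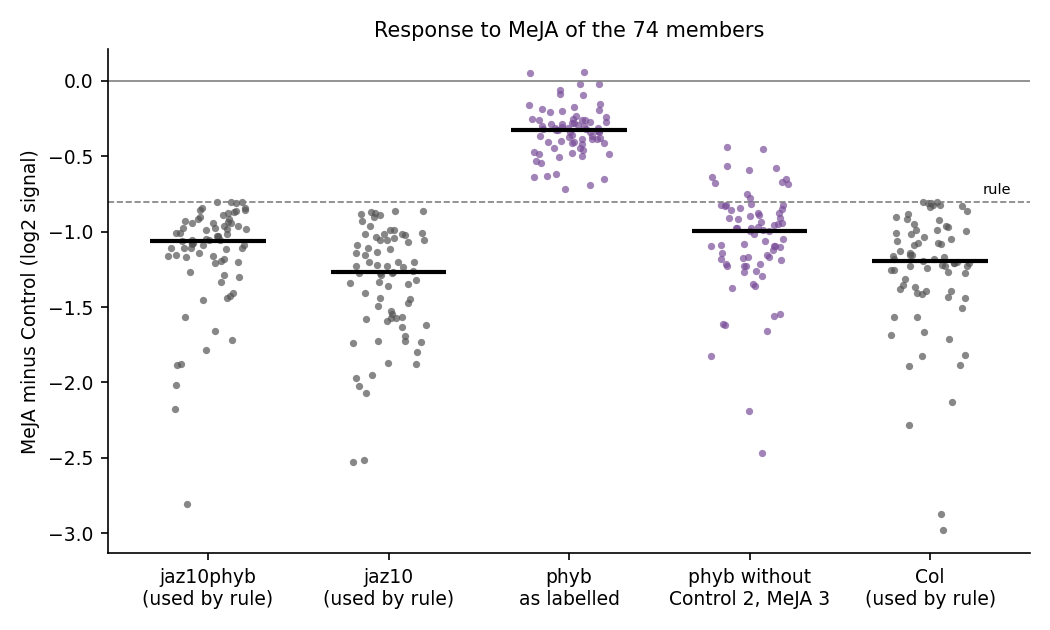
MeJA minus Control in log2 signal (y axis) for each of the 74 members (points) with their median (bar), in the 3 genotypes the rule used (grey) and in phyb (purple), as labelled and after removal of phyb Control 2 and phyb MeJA 3. The dashed line is the rule's threshold of -0.8; the phyb median is -0.33 with all arrays and -0.99 without the 2.

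Members close to the threshold moved in or out on a very small difference. Just inside were AT4G21445, with a change of -0.80 in jaz10phyb, AT1G72416, with -0.80 in Col, and AT1G76110, with -0.80 in jaz10phyb. Just outside were CYP71B29, a cytochrome P450 gene, with -0.79 in jaz10phyb, AT5G21100, with -0.79 in jaz10phyb, and AT5G57760, with -0.79 in jaz10.

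The 5 members with a symbol have unlike roles. SCPL34 (AT5G23210) belongs to the serine carboxypeptidase-like family. Its signal in jaz10phyb was 43.3 and 39.3 after MeJA, against 128 and 120.2 after Control. In jaz10 it was 66.6 and 54.6 after MeJA, against 118 and 107 after Control. In Col the MeJA arrays had 56.2 and 61.4, against 138 and 133 on the Control arrays. The log2 changes were -1.56 in jaz10phyb, -0.89 in jaz10 and -1.19 in Col, so the double mutant had the lowest MeJA signals and the jaz10 plants the smallest change. In phyb the signal was 34.3, 53.8 and 121 on MeJA arrays 1 to 3, against 156, 56.7 and 116 on Control arrays 1 to 3. The phyb groups overlapped through MeJA 3 and Control 2, and the change was -0.72 ± 0.38 (limma SE, n = 3 arrays per group), the lowest of any member in phyb as labelled.

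DRT100 (AT3G12610) encodes a leucine-rich repeat protein and was named for a screen on tolerance of DNA damage. In jaz10phyb it had 26.6 and 21.3 after MeJA, against 43.2 and 52.6 after Control. The jaz10 arrays read 13.0 and 15.4 after MeJA, against 47.4 and 39.4 after Control. Col plants had 14.7 and 16.8 after MeJA, against 48.1 and 70.1 after Control. The change was thus -0.97 in jaz10phyb, -1.55 in jaz10 and -1.82 in Col, and the MeJA signals of jaz10phyb lay above those of jaz10 and Col. In phyb it had 24.0, 29.2 and 60.3 after MeJA, against 54.1, 27.7 and 46.1 after Control, again with MeJA 3 high and Control 2 low.

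KICP-02 (AT3G50240) encodes a kinesin, a motor protein that moves along microtubules. After MeJA it read 106 and 87.1 in jaz10phyb, against 180.2 and 166 after Control. In jaz10 the values were 96.8 and 76.6 after MeJA, against 193 and 164 after Control. In Col they were 74.2 and 69.9 after MeJA, against 207 and 206 after Control. Its change grew in the order jaz10phyb (-0.84), jaz10 (-1.04) and Col (-1.50), with Control signals close to each other in the 3 genotypes. The phyb arrays had 68.4, 93.6 and 186 after MeJA, against 187, 81.9 and 159 after Control.

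CYP71B5 (AT3G53280) is a cytochrome P450, an oxygen-inserting enzyme, and its signal was low throughout. In jaz10phyb it had 23.5 and 18.2 after MeJA, against 43.2 and 38.4 after Control. The jaz10 plants had 15.8 and 19.1 after MeJA, against 43.8 and 35.5 after Control. Col had 24.0 and 20.03 after MeJA, against 40.3 and 43.4 after Control. The changes, -0.94 in jaz10phyb, -1.14 in jaz10 and -0.90 in Col, lay close together. Every mean of these 3 genotypes was under the signal minimum of 50 that a gene had to reach on at least 1 array to be tested. On the phyb arrays it had 20.8, 24.1 and 50.6 after MeJA, against 48.7, 19.99 and 50.9 after Control, so it passed that minimum through phyb MeJA 3 and phyb Control 3.

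CRR21 (AT5G55740) is a pentatricopeptide repeat protein that is needed to edit the chloroplast transcript ndhD, which encodes a subunit of the NDH complex. Its signal in jaz10phyb was 76.5 and 59.3 after MeJA, against 114 and 132 after Control. In jaz10 it was 64.4 and 69.3 after MeJA, against 163 and 129 after Control. In Col it was 75.8 and 80.1 after MeJA, against 146 and 131 after Control. The changes were -0.85 in jaz10phyb, -1.11 in jaz10 and -0.82 in Col, among the shallower ones of the 74. In phyb the arrays had 67.5, 101 and 126 after MeJA, against 121, 64.5 and 125 after Control, and the change of -0.06 ± 0.25 was close to 0.

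**Figure D3:**
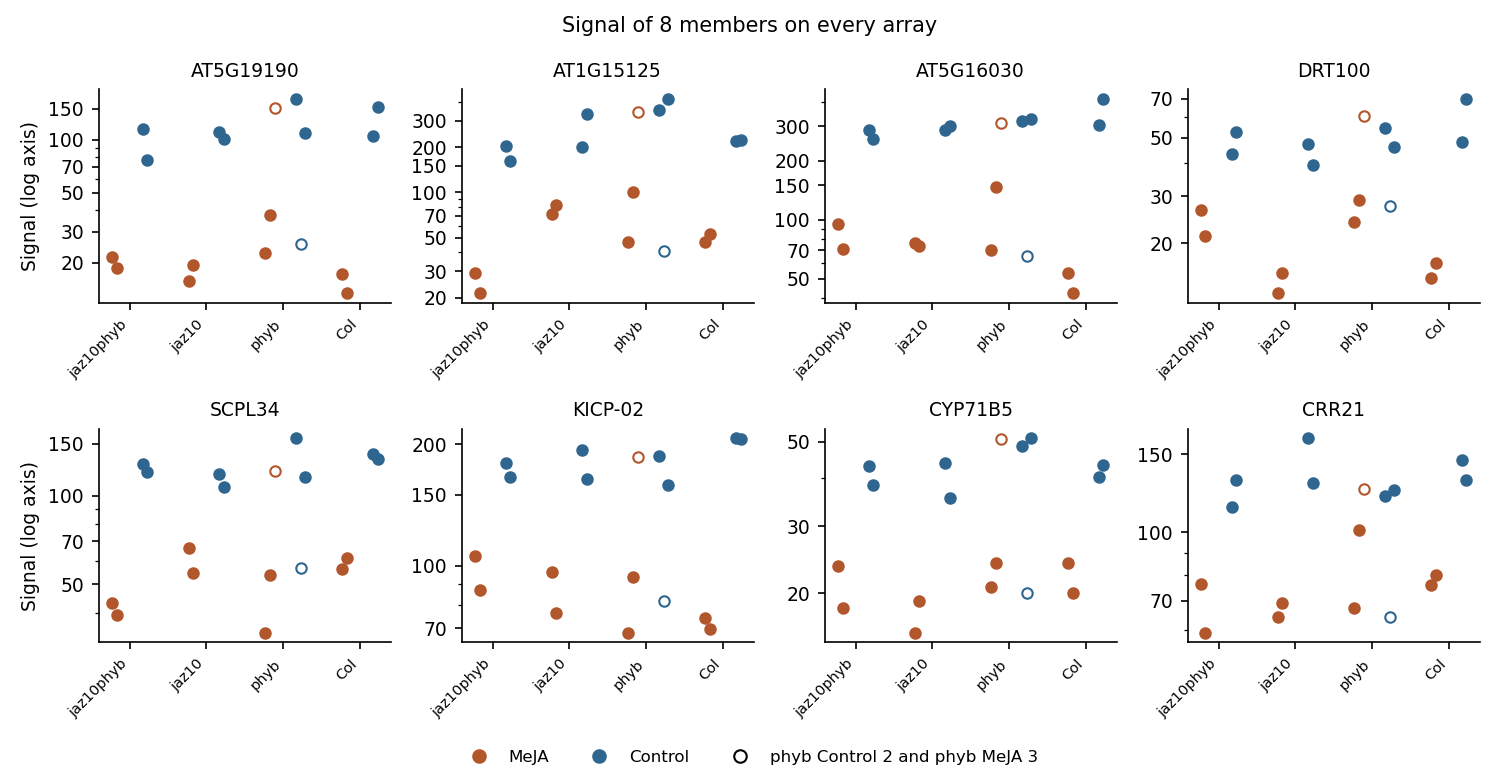
Signal (y axis, log scale) on every array for the 5 members with a symbol and the 3 members with the lowest mean change, by genotype (x axis), with MeJA arrays left of Control arrays and phyb Control 2 and phyb MeJA 3 as open circles. In jaz10phyb, jaz10 and Col no MeJA point reaches a Control point; in phyb the open circles cross over, as for SCPL34 at 121 on phyb MeJA 3 and 56.7 on phyb Control 2.

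The 8 members without a symbol that had the lowest mean change over the 3 genotypes were AT5G19190, AT1G15125, AT5G16030, AT1G65490, AT5G41900, AT3G62550, AT1G29660 and AT4G27300. AT5G19190 came first, with 21.5 and 18.7 in jaz10phyb after MeJA, against 116 and 76.97 after Control. The jaz10 arrays had 15.7 and 19.3 after MeJA, against 111 and 101 after Control. The Col arrays had 17.1 and 13.5 after MeJA, against 105 and 153 after Control. It was 4.52-fold lower in jaz10phyb, with log2 changes of -2.18 there, -2.53 in jaz10 and -2.98 in Col. In phyb it read 22.7, 37.6 and 152 after MeJA, against 171, 25.6 and 109 after Control.

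AT1G15125 had the lowest change of any member in jaz10phyb, where it was 6.99-fold lower. It read 28.9 and 21.5 there after MeJA, against 202 and 161 after Control. In jaz10 it read 72.3 and 82.4 after MeJA, against 200.04 and 333 after Control, and in Col 46.7 and 53.2 after MeJA, against 221 and 222 after Control. The double mutant's MeJA signals lay below those of jaz10 and Col, with changes of -2.81 in jaz10phyb, -1.73 in jaz10 and -2.13 in Col. In phyb the signals were 46.6, 101 and 340.0 after MeJA, against 351, 40.7 and 419.6 after Control.

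AT5G16030 and AT3G62550 had their lowest change in Col. AT5G16030 had 95.0 and 70.8 in jaz10phyb after MeJA, against 287 and 259 after Control. In Col it had 53.4 and 42.4 after MeJA, against 304 and 414 after Control, and its changes were -1.72 in jaz10phyb, -1.97 in jaz10 and -2.87 in Col. AT3G62550 had 242 and 214 in jaz10phyb after MeJA, against 503 and 467 after Control. In Col it had 99.5 and 63.5 after MeJA, against 325 and 469.9 after Control, and its changes were -1.09 in jaz10phyb, -1.80 in jaz10 and -2.28 in Col.

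The other 4 of these genes had their lowest change in jaz10. AT1G65490 read 10.96 and 10.3 in jaz10 after MeJA, against 68.8 and 62.4 after Control, with changes of -1.66 in jaz10phyb, -2.52 in jaz10 and -1.71 in Col. For AT5G41900 the jaz10 signals were 62.0 and 78.2 after MeJA, against 295 and 296 after Control, with changes of -2.02 in jaz10phyb, -2.07 in jaz10 and -1.18 in Col. For AT5G41900, AT4G27300 and AT1G29660 the changes in jaz10phyb and jaz10 were lower than in Col, a difference that was not tested. AT4G27300 had 46.1 and 43.7 in jaz10phyb after MeJA, against 188 and 149.8 after Control, while Col had 69.9 and 67.2 after MeJA, against 185 and 138 after Control. AT1G29660 had changes of -1.78 in jaz10phyb, -2.02 in jaz10 and -1.31 in Col.

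The depth of the change varied between genotypes from member to member. The gap between a member's highest and lowest change in the 3 genotypes had a median of 0.41. It was at most 0.3 for 29 members, at most 0.5 for 48 and over 1 for 3, which were AT1G15125 (1.08), AT5G16030 (1.15) and AT3G62550 (1.20). The smallest gaps were those of AT1G51090, with -1.17 in jaz10phyb, -1.14 in jaz10 and -1.15 in Col, and of AT4G28780, with -1.06, -1.04 and -1.07 in the same order. The jaz10 change was the lowest of the 3 for 35 members, the Col change for 24 and the jaz10phyb change for 15. The jaz10phyb change was the highest of the 3 for 44 members, the Col change for 22 and the jaz10 change for 8. These counts come from the arrays the rule used, and differences of response between genotypes were not tested for them.

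**Figure D4:**
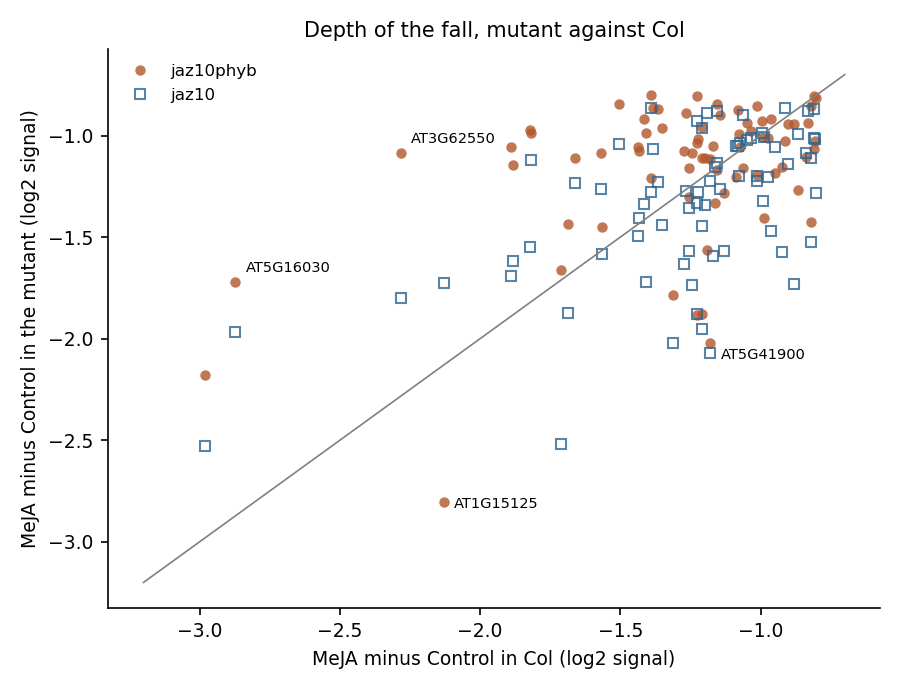
MeJA minus Control in log2 signal in jaz10phyb (filled circles) and jaz10 (open squares) on the y axis, against the same change in Col on the x axis, for the 74 members. Points below the line went lower in the mutant, as AT1G15125 in jaz10phyb (-2.81 against -2.13 in Col), and points above it went lower in Col, as AT5G16030 (-1.72 in jaz10phyb against -2.87 in Col).

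By the genotype of the lowest change, the whole membership is as follows, with the loci listed to account for every member and not for their values. The jaz10phyb change was the lowest for AT1G15125, AT3G54830, AT1G55450, SCPL34, AT1G51090, AT5G47610, AT1G73600, AT2G15020, AT5G07580, AT3G22142, AT3G23450, AT3G53990, AT5G39020, AT5G51560 and AT1G52780. The jaz10 change was the lowest for CYP71B5 and CRR21 and for AT1G65490, AT5G41900, AT1G29660, AT4G27300, AT1G10640, AT3G17640, AT1G67750, AT1G28660, AT2G24280, AT4G18220, AT1G63860, AT5G08760, AT1G15260, AT4G29905, AT5G55620, AT1G64710, AT1G60590, AT1G75900, AT2G18890, AT4G24780, AT5G18470, AT3G04210, AT3G21950, AT5G11610, AT3G08030, AT1G08890, AT1G06360, AT1G07440, AT2G43200, AT5G25280, AT3G53100, AT1G72416 and AT1G04680. The Col change was the lowest for DRT100 and KICP-02 and for AT5G19190, AT5G16030, AT3G62550, AT5G44680, AT3G07010, AT1G09750, AT5G59670, AT5G44020, AT5G38210, AT5G11420, AT5G45670, AT1G08900, AT4G38550, AT4G28780, AT2G42690, AT4G21445, AT3G19000, AT3G18050, AT2G47440, AT1G76110, AT4G30020 and AT1G69730.

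Signal limits how far some of these changes can be read. After MeJA the mean signal was under 50 for 37 members in jaz10phyb, 36 in jaz10 and 34 in Col, and for 29 members in all 3. After Control it was under 50 in all 3 genotypes for AT1G63860, AT2G47440 and CYP71B5. Signal over background was not tested.

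The members were spread over the 5 chromosomes. Chromosome 1 held 24 of them (32.4%, against 25.4% of all tested genes), chromosome 2 held 6 (8.11% against 14.7%), chromosome 3 held 16 (21.6% against 20.1%), chromosome 4 held 8 (10.8% against 14.9%) and chromosome 5 held 20 (27.0% against 23.4%). AT1G08890 and AT1G08900 are neighbours with no protein-coding gene between them, the only such pair. AT1G08890 had 105 and 115 in jaz10phyb after MeJA, against 244 and 179 after Control, with changes of -0.92 there, -1.47 in jaz10 and -0.96 in Col. AT1G08900 had 33.9 and 30.2 in jaz10phyb after MeJA, against 60.5 and 57.8 after Control, with changes of -0.87 there, -1.23 in jaz10 and -1.36 in Col.

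The model fitted over all genes gives the rule's own contrasts as background. With all 18 arrays, limma called 0 of the 74 members lower at an adjusted p under 0.05 in jaz10phyb (0.0176% of all genes), 41 in jaz10 (4.32%) and 42 in Col (6.49%). Genes called higher were 0.0176%, 4.41% and 8.23% of all genes in the same order. Without phyb Control 2 and phyb MeJA 3, which enter the shared estimate of spread, the members called lower were 73 in jaz10phyb (11.2%), 74 in jaz10 (14.4%) and 74 in Col (16.2%). Nothing is read from these counts, since the rule used the contrasts.

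In phyb plants as labelled, the members had a median change of -0.33, with a range of -0.72 to 0.06, against a median of -0.03 over all genes (n = 3 arrays per group). The change was below 0 for 72 of the 74 members (97.3%), against 59.0% of all genes. The members with a change above 0 were AT4G18220 (0.06 ± 0.52, limma SE) and AT1G08890 (0.06 ± 0.24). No member had all phyb MeJA arrays below all phyb Control arrays, against 3.97% of all genes. The limma test called 0 of the 74 members lower, against 0% of all genes, with a smallest adjusted p of 0.962 among them. At an unadjusted p under 0.05 there were 0 members and 198 genes in all (3.48%). The median of -0.33 moved with single arrays. It was -0.11 when phyb MeJA 1 was left out and -0.23 when phyb MeJA 2 was, and -0.12 and -0.19 when phyb Control 1 or phyb Control 3 was. It was -0.68 with phyb MeJA 3 left out and -0.69 with phyb Control 2 left out. The response of these genes in phyb was therefore not detectable with the arrays as labelled, and the spread within each phyb group was wide: AT1G15125, for example, had a change of -0.63 ± 0.76.

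After removal of phyb Control 2 and phyb MeJA 3 the values in phyb were lower (n = 2 arrays per group). The median change of the members was -0.99, with a range of -2.47 to -0.44, and all 74 changes were below 0. The limma test called 72 of the 74 members lower, against 9.37% of all genes. AT1G63860, AT2G47440 and CYP71B5 had reached the signal minimum of 50 only on phyb arrays, and were tested because they were high there. Set aside, they left 69 of 71 members called lower, with a median of -0.99. A change of -0.8 or below, the threshold used in the other genotypes, was reached by 62 of the 74 members, against 140 of all 5689 genes (2.46%), and by 59 of those 71. The exceptions to the call were AT1G08890 (-0.44 ± 0.16, adjusted p = 0.0835) and AT4G21445 (-0.63 ± 0.24, adjusted p = 0.0954). The count of 72 depends on the removal of both arrays, since leaving out any single array of the 18 gave 0.

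phyb Control 2 and phyb MeJA 3 were singled out on this response in these genes, so the p-values below are no independent evidence. With all arrays the smallest limma adjusted p of any member in phyb was 0.962. In the fit without the 2 arrays AT3G17640 fell by 1.61 on the log2 scale (SE 0.1, limma adjusted p = 5.75e-07). Its p was the smallest of the set. AT1G64710 fell by 1.26 (SE 0.13, adjusted p = 2.11e-05). SCPL34 fell by 1.62 (SE 0.19, adjusted p = 6.15e-05), close to its change of -1.56 in jaz10phyb. AT1G15125 fell by 2.47 (SE 0.3, adjusted p = 9.12e-05) and AT5G19190 by 2.19 (SE 0.27, adjusted p = 0.000112), the lowest changes. AT3G54830 fell by 1.55 (SE 0.14, adjusted p = 1.07e-05), AT5G41900 by 1.56 (SE 0.15, adjusted p = 1.29e-05), AT1G29660 by 1.26 (SE 0.14, adjusted p = 4.19e-05) and AT4G27300 by 1.36 (SE 0.15, adjusted p = 4.19e-05). Among the other members with a symbol, CYP71B5 fell by 1.12 (SE 0.15, adjusted p = 0.000224), KICP-02 by 1.10 (SE 0.16, adjusted p = 0.000468), DRT100 by 0.89 (SE 0.19, adjusted p = 0.00513) and CRR21 by 0.57 (SE 0.18, adjusted p = 0.0464).

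Loss of PHYB or of JAZ10 was next compared over both treatments, as the mean of a genotype's MeJA and Control groups. This difference in level does not depend on the difference between treatments that the rule used. With all 18 arrays limma called none of the 74 members in any of the 4 comparisons. For jaz10phyb minus jaz10 the members had a median of 0.02, 0 were called (1.04% of all genes) and 3 had an unadjusted p under 0.05 (11.3% of all genes). For jaz10phyb minus phyb the median was -0.15, 0 were called (0.193%) and 3 had such a p (6.94%). For phyb minus Col the median was 0.09, 0 were called (1.25%) and 11, or 14.9% of the members, had such a p, near the 12.4% of all genes. For jaz10 minus Col the median was -0.07, 0 were called (0.0527%) and 0 had such a p (4.71%), with a smallest adjusted p of 0.992. AT1G63860, AT2G47440 and CYP71B5, which reached the signal minimum only on phyb arrays, were again set aside. Such a p was then left for 2 of 71 members in jaz10phyb minus phyb and for 10 of 71 in phyb minus Col. The members nearest to a call were AT1G08890 (0.84 ± 0.20, adjusted p = 0.0733) and AT1G51090 (0.87 ± 0.22, adjusted p = 0.093), both in jaz10phyb minus jaz10. Next came AT1G72416 in phyb minus Col (0.64 ± 0.17, adjusted p = 0.103). These members are singled out for their values.

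In the fit of the 16 other arrays some members differed in level where PHYB was lost, in both directions. For jaz10phyb minus jaz10, whose own arrays and differences are the same in both fits, 7 members were called (3.59% of all genes), 4 of them higher and 3 lower. For phyb minus Col 12 members were called (3.96%), 9 of them higher and 3 lower. For jaz10phyb minus phyb 3 were called (0.545%). For jaz10 minus Col 0 members were called (0.0703%), and 12 had an unadjusted p under 0.05 in limma, against 472 of all 5689 genes (8.3%). The unadjusted count in phyb minus Col was 31 members of 74, against 1011 of 5689 genes (17.8%). It was 29 of 71 without the 3 members that reached the signal minimum only on phyb arrays.

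AT1G72416, AT3G54830 and AT5G59670 were called in the same direction in both comparisons that differ by PHYB. They are 3 of the 7 members called in jaz10phyb minus jaz10 and 3 of the 12 called in phyb minus Col. The comparisons share no array, but both use the same fit's estimate of each gene's spread, so the calls are not independent. The share of all genes called in both is not given here. AT1G72416 had 28.8 and 32.5 in jaz10phyb and 17.0 and 18.4 in jaz10 after MeJA. After Control it had 53.8 and 55.1 in jaz10phyb and 44.4 and 44.8 in jaz10, so all 4 jaz10phyb arrays lay above the jaz10 arrays of their treatment. It rose by 0.52 ± 0.10 in jaz10phyb over jaz10 (adjusted p = 0.00964) and by 0.59 ± 0.10 in phyb over Col (adjusted p = 0.00334).

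AT3G54830 was the member called lower in both. After MeJA it had 21.1 and 23.5 in jaz10phyb and 38.8 and 31.9 in jaz10. After Control it had 83.4 and 86.1 in jaz10phyb and 142 and 122 in jaz10. The difference was -0.63 ± 0.10 in jaz10phyb minus jaz10 (adjusted p = 0.00422) and -0.72 ± 0.10 in phyb minus Col (adjusted p = 0.00148). AT5G59670 was higher by 0.67 ± 0.17 in jaz10phyb over jaz10 (adjusted p = 0.0438) and by 0.65 ± 0.17 in phyb over Col (adjusted p = 0.0444), close to the threshold in each.

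Other members were called in 1 of the 2 comparisons, which does not show that the effects differ. In jaz10phyb minus jaz10 these were AT1G51090 (0.87 ± 0.10, adjusted p = 0.000625), AT1G08890 (0.84 ± 0.11, adjusted p = 0.00176), AT1G15125 (-1.05 ± 0.21, adjusted p = 0.015) and AT3G17640 (-0.31 ± 0.07, adjusted p = 0.0286). AT1G51090 read 63.5 and 82.6 in jaz10phyb after MeJA, against 43.1 and 36.7 in jaz10, and 159.8 and 169 in jaz10phyb after Control, against 80.9 and 96.9 in jaz10. Its change with MeJA was nearly the same in the 3 genotypes of the rule, and its level was higher in the double mutant under both sprays. In phyb minus Col the called members with the smallest p were AT5G41900 (-0.76 ± 0.10, adjusted p = 0.00145), AT3G54830, AT1G67750 (-0.68 ± 0.10, adjusted p = 0.00254), AT4G38550 (0.79 ± 0.12, adjusted p = 0.00296), AT1G72416 and AT3G04210 (0.78 ± 0.13, adjusted p = 0.0051). AT5G38210, AT1G69730, AT5G08760, AT1G63860, AT5G45670 and AT5G59670 made up the rest, all higher in phyb. AT1G63860 is set apart among them, since it reached the signal minimum on phyb Control 1 alone (65.57, against at most 42.5 outside phyb). Without the 3 members that reached it only on phyb arrays, 11 of 71 were called in phyb minus Col, 8 higher and 3 lower. In jaz10phyb minus phyb the called members were AT1G51090 (0.61 ± 0.10, adjusted p = 0.0138), AT1G15125 (-1.25 ± 0.21, adjusted p = 0.0138) and AT4G27300 (-0.52 ± 0.10, adjusted p = 0.0447).

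These counts are small and move with single arrays. The 7 became 3 without jaz10phyb MeJA 2 and 4 without jaz10 Control 2 or jaz10 MeJA 2. A fit of the 8 jaz10phyb and jaz10 arrays alone, which contains neither doubtful array, called 6 members, 4 higher and 2 lower. Of all 5689 genes it called 76 higher and 69 lower. Of the 6 members, 5 were among the 7, but both fits use the same differences, so this overlap is no independent evidence. The sixth was AT3G62550 (0.66 ± 0.09, adjusted p = 0.00781). Of the 7, AT3G17640 and AT5G59670 were not called there. AT5G59670 is among the members given above as called in both comparisons that differ by PHYB. The 12 became 6 without Col Control 2. The 3 became 0 without jaz10phyb Control 2 or jaz10phyb MeJA 2, 1 without phyb Control 1, phyb Control 3 or phyb MeJA 2, and 7 without phyb MeJA 1. Without jaz10 MeJA 1 or 2, or Col MeJA 1 or 2, the 3 became 2.

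**Figure D5:**
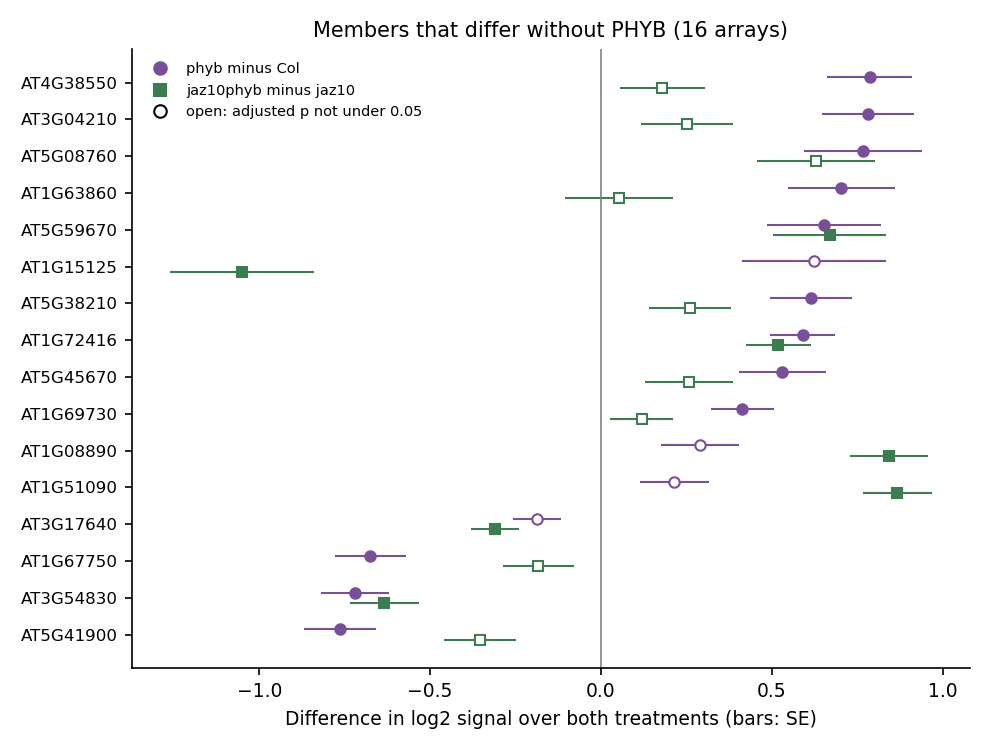
Difference in log2 signal over both treatments (x axis, bars are limma SE) for phyb minus Col (circles) and jaz10phyb minus jaz10 (squares), in the fit of 16 arrays, for the 16 members called in either; open symbols are not called. AT3G54830 lies below 0 and AT1G72416 above 0 in both, and AT1G15125 is at -1.05 in jaz10phyb minus jaz10 and at 0.62, not called, in phyb minus Col.

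Genes of related pathways that are not members were looked at through lists built from gene symbols. The largest, 57 genes of photosynthesis and chlorophyll synthesis besides CRR21, had 0 genes higher and 0 lower in jaz10phyb and in jaz10, and 0 higher and 4 lower in Col by limma with all arrays. These were PORB, a protochlorophyllide reductase (-0.91 in Col, adjusted p = 0.0324), LHCB4.2, an antenna protein of photosystem II (-0.73, adjusted p = 0.0306), HEME2, an enzyme of tetrapyrrole synthesis (-0.54, adjusted p = 0.0333), and PGRL1B, a protein of cyclic electron flow (-0.41, adjusted p = 0.0346). The list holds 34 genes encoded in the chloroplast, and its median was -0.03 in jaz10phyb, -0.04 in jaz10 and 0.00 in Col. Those 34 had medians of 0.00 in jaz10phyb, 0.01 in jaz10 and 0.04 in Col, with 0 called. CHI and CHIL entered the list by their letters alone and are no genes of this pathway, and neither was called. The other 21 genes are nuclear, and they too, CHL among them, were listed by symbol alone. Their median was -0.22 in jaz10phyb, -0.24 in jaz10 and -0.34 in Col, and the change was below 0 for 20, 19 and 20 of them in the same order. This split of the list was made after its values were seen.

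Of 20 genes in the list of organelle RNA processing and translation besides CRR21, 1 was lower in jaz10 and in Col and 0 in jaz10phyb. The list medians were -0.09 in jaz10phyb, -0.07 in jaz10 and -0.04 in Col. The gene was OTP70, another pentatricopeptide repeat gene, with -0.74 in jaz10phyb (adjusted p = 0.11), -0.90 in jaz10 (adjusted p = 0.0406) and -0.91 in Col (adjusted p = 0.0337). Of 25 genes of cell wall loosening and matrix enzymes, 5 were higher and 2 lower in jaz10, 5 higher and 2 lower in Col, and 0 in jaz10phyb. Those higher were CSLC04, CSLC5, IRX15-L, TBL37 and TBL45 in jaz10, and CSLC04, CSLA01, IRX15-L, TBL26 and TBL37 in Col. Those lower were the expansin gene EXPA16 and XTH32 in jaz10, and the expansin gene EXPA8 and TBL25 in Col. The rises called were thus not in expansin genes. CSLC04, a cellulose synthase-like gene, rose by 0.81 in jaz10 (adjusted p = 0.0175) and by 0.78 in Col (adjusted p = 0.0275). That was the smallest rise called in Col, where CSLA01 rose by 4.37 (adjusted p = 0.0341). EXPA8, left out of the members by name, had a change of -3.72 in Col (adjusted p = 0.0337). The median of the wall list was 0.17 in jaz10phyb, 0.17 in jaz10 and 0.12 in Col. The lists of auxin, brassinosteroid and gibberellin, cell division, clock and light signalling, and dehydration had at most 6 tested genes each. So did the list of leucine-rich repeat and receptor-like kinase genes besides DRT100. The lists of cytokinin and of aquaporins and nutrient transporters had 0. Among these lists 1 auxin gene was lower in Col, 2 brassinosteroid and gibberellin genes were higher in jaz10 and 2 in Col. Lower in jaz10 were 2 dehydration genes. FLR1, a leucine-rich repeat gene, was higher in jaz10 (2.77, limma adjusted p = 0.0395) and in Col (2.73, adjusted p = 0.0331). The receptor-like kinase genes FER and THE1 were not called in jaz10phyb, jaz10 or Col. Without the 2 phyb arrays more genes of the lists were called, as of all genes, of which 11.2% were lower in jaz10phyb, 14.4% in jaz10 and 16.2% in Col. Called higher were 423, 581 and 848 of all 5689 genes in the same order. Of the 57 photosynthesis genes, 3 were lower in jaz10phyb, 6 in jaz10 and 11 in Col, all nuclear, and 0 were higher. Of the 25 wall genes, 6 were higher and 3 lower in jaz10phyb, 8 and 6 in jaz10, and 6 and 6 in Col. Of the 20 organelle genes, 2 were lower in jaz10phyb, 1 in jaz10 and 4 in Col, and 1 was higher in Col. CRR41 and CRR42 stand in both the organelle and the photosynthesis list and are counted in each. CRR42 was lower in jaz10phyb (limma adjusted p = 0.0415) and in Col (adjusted p = 0.00271), and CRR41 in Col (adjusted p = 0.023). Of the 6 dehydration genes, 4 were lower in jaz10phyb, 3 in jaz10 and 1 in Col. All 3 brassinosteroid and gibberellin genes were higher in each of these genotypes, and FLR1 was higher in each. Of the 2 clock and light genes, 2 were lower in jaz10phyb, 1 in jaz10 and 1 in Col. Of the 3 cell division genes 1 was lower in jaz10phyb and in jaz10, and of the 2 auxin genes 1 was lower in Col.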

How the data were processed

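The 18 arrays were deposited as a table of 38408 probe sets. The deposited values are linear signal intensities that come from Affymetrix Expression Console, as the submitters' processing notes have it. How probes were summarised, and on which genome build, is not given in the sources used here. Array medians lay between 14.87 and 17.5. Intensities were used as log2(value + 1). The platform annotation paired 16722 probe sets with 1 gene, 759 with several and 20927 with none. Symbols and neighbours were looked up in a TAIR10.1 gene table, where 16670 of the single-gene probe sets matched. A probe set was kept if any array gave 50 or more, and the brightest of a gene was used, giving 5689 genes, 833 with a symbol.

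Means of the 8 groups were fitted to the 18 arrays in limma (limma 3.58.1, R 4.3.3), with 10 residual degrees of freedom, or 8 without phyb Control 2 and phyb MeJA 3. The fit was run on simulated data whose spread came from the fit without these 2 arrays. That run cannot show how the fit performs with the wider spread of all 18 arrays, and nothing is read from it. All p-values are two-sided, with Benjamini-Hochberg adjustment over 5689 genes and calls at an adjusted p under 0.05. Errors are limma standard errors. The number of arrays limits the precision. Sample titles gave each array's group and number.

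Named were members with a symbol, the 8 others with the lowest mean change and up to 6 called members a comparison by p. Also named were 3 genes on either side of the threshold and up to 2 genes a list. PGRL1B, PORB, CRR41, CRR42, CHL, CSLA01 and EXPA8 were named in the lists after their values were seen. So were genes given to account for every member or every call, and comparisons of single genes outside this. The naming of called members was applied to the fit without the 2 arrays after the data were seen. The members and the lists were chosen with earlier results of these data known. Alternatives were the threshold, pseudocount, signal minimum, array scaling, probe set choice, a replicate block, eBayes settings, separate fits and each array left out.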

Additional observations from a re-analysis of the deposited data

Results flagged for a closer look

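AT1G15125 was singled out because the effect of PHYB loss on its level differed between the jaz10 background and the Col background. Without phyb Control 2 and phyb MeJA 3, the difference of jaz10phyb minus jaz10 was -1.05 ± 0.21 and that of phyb minus Col was 0.62 ± 0.21 (adjusted p = 0.124). The test of the difference between them, a limma contrast over both treatments that was added after the data were seen, gave -1.68 ± 0.30 (adjusted p = 0.045). It was the only member called in that contrast, in which 12 of all 5689 genes were called (0.211%). An unadjusted p under 0.05 was found for 15 of the 74 members, against 500 of all genes (8.79%). With all 18 arrays the contrast was -1.52 ± 0.89 (adjusted p = 0.994), and 0 members were called, against 0.0879% of all genes.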

How the results depend on the processing

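The membership depends on the threshold and on the pseudocount, and it also moved with the signal minimum and the array scaling. The rule gave 34 genes at -1.0, 166 at -0.6 and 42 with a pseudocount of 16. It gave 55 genes with a signal minimum of 100 and 93 with no minimum. Centring arrays on their median gave 64 genes, 61 of them members, and quantile normalization gave 69, 67 of them members. Leaving out single arrays of the 3 genotypes gave 65 to 88 genes, with 62 to 73 of the 74 members among them. Removing phyb Control 2 and phyb MeJA 3 moved the most values: the phyb median became -0.995, the members lower in phyb 72, those called in phyb minus Col 12, in jaz10phyb minus jaz10 7 and in jaz10phyb minus phyb 3. With 1 phyb array left out the phyb median ran from -0.691 to -0.106. Leaving out 1 array of the 18 gave 0 to 5 in phyb minus Col (5 without phyb Control 2, 1 without phyb MeJA 3) and 0 to 2 in jaz10phyb minus jaz10 (2 without either). In the fit without both, leaving out 1 more gave 52 to 72 in phyb, 6 to 15 in phyb minus Col, 3 to 8 in jaz10phyb minus jaz10 and 0 to 7 in jaz10phyb minus phyb. The jaz10phyb minus jaz10 count was 6 in a fit of these genotypes alone. The cause of these moves was not tested.

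With 1 phyb array left out, the phyb change ran from -0.62 to 0.032 for DRT100, -0.37 to 0.18 for CRR21, -1.70 to 0.025 for AT1G15125, -1.12 to 0.17 for AT5G16030 and -0.84 to 0.36 for AT3G62550. Whether the replicate numbers pair the samples was not settled. The correlation of deviations of same-numbered MeJA and Control arrays was 0.10 in jaz10phyb, -0.02 in jaz10 and 0.09 in Col. In phyb it was -0.72, 0.45 and 0.60. The phyb values cannot decide on pairing, since phyb Control 2 and phyb MeJA 3 each resembled the opposite treatment. With the replicate number as a block, 2 members were called in jaz10phyb minus jaz10, and the counts in the other tested comparisons were 0, as without it. Centring each array on its median moved the median of all genes in Col to -0.11, and all 74 members were below 0 in the 3 genotypes under each scaling, and 70 in phyb under centring and under quantile normalization.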
